A study of Mus musculus with 12 samples.

Results

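The 9 genes described here form the imprinted Prader-Willi/Angelman domain of mouse chromosome 7, measured in adult retina. They are the rows of the expression tables named Ube3a, Snrpn, A230006K03Rik, A330076H08Rik, Ndn, Magel2, Mkrn3 and Peg12, and 2 Ensembl genes share the symbol A230006K03Rik, so that 8 symbols give 9 of the 37991 genes. The genes were chosen by their known place in this domain and with their maternal and paternal read counts and F0 levels in these libraries in view, so the parental shares given here describe them and carry no test. RNA was sequenced from retinas of male mice aged 8 weeks in 12 libraries, 3 from each of 4 classes. F0 C57BL/6J and F0 Cast/EiJ are the inbred parent strains. The F1 B6xCast hybrids had a C57BL/6J father and a Cast/EiJ mother, and the F1 CastxB6 hybrids had a Cast/EiJ father and a C57BL/6J mother, so the C57BL/6J allele is paternal in F1 B6xCast and maternal in F1 CastxB6. Each library pooled 6 to 8 retinas, no class carried a treatment or an engineered allele, and the mRNA was captured by its polyadenylated tail and sequenced without keeping the strand.

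Imprinted genes are transcribed mainly from the allele inherited from a particular parent, a state set by DNA methylation in the germ line. In this domain an imprinting center at the Snrpn promoter is methylated on the maternal chromosome, and Snrpn and the genes beyond it are then read from the paternal chromosome. Ube3a, at the other side of Snrpn, is the exception. In most neurons of the brain its paternal copy is silenced by a long antisense RNA that starts near Snrpn, and its maternal copy is expressed. Loss of paternal expression in the human domain causes Prader-Willi syndrome, and loss of maternal UBE3A causes Angelman syndrome.

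On the NCBI37 build the 9 genes lie within 3.13 Mb, at chr7:66484122-69609396. Ube3a (chr7:66484122-66562097, plus strand) has 13 exon blocks and encodes the ubiquitin ligase E6-AP. Snrpn (chr7:67127388-67285105, minus strand) has 12 exon blocks and encodes SmN, the neuronal form of a core protein of the spliceosome. The A230006K03Rik pair lies at chr7:68234469-68366812, annotated as protein-coding, and at chr7:68427625-68456607, annotated as a long intergenic non-coding RNA (lincRNA). A330076H08Rik, a lincRNA of 5 exon blocks, lies at chr7:69075799-69127242, also on the minus strand. The last 4 genes each have 1 exon block. Ndn (chr7:69493163-69494814, plus strand) encodes necdin and Magel2 (chr7:69521865-69526526, plus strand) encodes another protein of the MAGE family. Mkrn3 (chr7:69562479-69565039, minus strand) encodes a zinc finger protein of the ubiquitin system, and Peg12 (chr7:69606757-69609396, minus strand) encodes a relative of the FRAT proteins, which bind the kinase GSK3.

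The 250 bases before the transcription start are shown for the genes on which the results below turn. RefSeq promoter windows, given for GRCm38.p6, were each found at 1 place in NCBI37 and are placed on that build. The first 3 are shown because Snrpn and Ndn gave the most paternal reads of the domain. Their capitals mark CGCATGCG, a palindrome that is the core of the consensus bound by the transcription factor NRF1 and was searched as these 8 letters, which read the same on both strands.
Snrpn, start used by Snurf, chr7:67150086-67150335, minus strand: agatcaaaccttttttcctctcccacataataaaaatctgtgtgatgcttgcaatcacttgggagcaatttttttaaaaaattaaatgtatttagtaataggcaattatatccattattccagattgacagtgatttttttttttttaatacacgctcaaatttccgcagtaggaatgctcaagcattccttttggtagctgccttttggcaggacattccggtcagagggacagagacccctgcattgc
Snrpn, upstream start, chr7:67285112-67285361, minus strand: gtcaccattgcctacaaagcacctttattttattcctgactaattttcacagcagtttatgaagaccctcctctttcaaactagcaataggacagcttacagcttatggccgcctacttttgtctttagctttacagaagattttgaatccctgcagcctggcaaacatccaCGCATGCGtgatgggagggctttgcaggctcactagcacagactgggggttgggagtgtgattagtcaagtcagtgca
Ndn, chr7:69492913-69493162, plus strand: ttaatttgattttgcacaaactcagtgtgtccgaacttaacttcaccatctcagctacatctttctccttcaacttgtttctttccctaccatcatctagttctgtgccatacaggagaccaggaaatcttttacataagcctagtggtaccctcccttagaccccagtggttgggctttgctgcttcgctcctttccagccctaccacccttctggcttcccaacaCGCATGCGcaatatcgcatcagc

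The palindrome began 23 bases before the Ndn start and 78 bases before the upstream Snrpn start shown. RefSeq lists another 2 upstream Snrpn starts, with windows at chr7:67192865-67193114 and chr7:67595064-67595313, and the palindrome began 71 and 63 bases before them. In the window of the Snurf start it was absent from the 250 bases shown and began 36 bases beyond the start. Of 32817 promoter windows of all genes, 1.54% held the palindrome in the 250 bases before the start. The 3 upstream Snrpn windows were close copies of each other, with 204 or 205 identical bases among the 250 in each pairwise alignment.

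The windows of the 2 non-coding genes are shown because they resembled each other. Capitals mark the 180 of 250 bases that were identical in their pairwise alignment.
A230006K03Rik, chr7:68456536-68456785, minus strand: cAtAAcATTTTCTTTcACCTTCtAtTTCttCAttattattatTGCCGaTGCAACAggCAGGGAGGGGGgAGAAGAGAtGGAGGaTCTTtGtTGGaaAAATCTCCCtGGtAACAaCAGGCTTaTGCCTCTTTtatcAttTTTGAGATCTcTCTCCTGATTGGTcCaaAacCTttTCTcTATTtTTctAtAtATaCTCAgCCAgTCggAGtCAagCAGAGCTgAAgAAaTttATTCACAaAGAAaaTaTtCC
A330076H08Rik, chr7:69127242-69127491, minus strand: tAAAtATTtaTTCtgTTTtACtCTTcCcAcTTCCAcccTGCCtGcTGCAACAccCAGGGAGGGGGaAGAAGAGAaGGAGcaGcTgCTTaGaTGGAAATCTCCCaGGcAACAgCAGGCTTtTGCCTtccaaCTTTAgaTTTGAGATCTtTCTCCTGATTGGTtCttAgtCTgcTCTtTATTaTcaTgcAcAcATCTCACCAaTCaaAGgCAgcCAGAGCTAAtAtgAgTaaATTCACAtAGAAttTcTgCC

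Apart from these 2 non-coding genes and the 3 upstream Snrpn starts, no pair among the 12 windows of the domain had more than 60.0% identical bases, against 72% for this pair and 81.6% to 82.0% for the Snrpn starts. The A330076H08Rik window held no CpG, and the A230006K03Rik window held 2, with a median of 6 over all promoter windows. Ube3a is shown as the contrasting window. Its capitals mark 24 CpGs, more than in 88.0% of all windows.
Ube3a, chr7:66483870-66484119, plus strand: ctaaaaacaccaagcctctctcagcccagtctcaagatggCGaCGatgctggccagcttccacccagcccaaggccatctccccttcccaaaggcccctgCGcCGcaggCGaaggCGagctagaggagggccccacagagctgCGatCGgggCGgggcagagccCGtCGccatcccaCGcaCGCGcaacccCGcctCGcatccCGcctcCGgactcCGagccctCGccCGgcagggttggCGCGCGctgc

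Unique hits are read pairs assigned to no other gene, which for a hybrid also means to no other allele. They numbered from 8158534 to 12363291 per library over all genes. The summed expression of 5 rod markers, in units like FPKM, was between 15590 and 17410 in every library, and that of 3 retinal pigment epithelium markers was between 2.45 and 10.6. Over the 13414 autosomal genes that averaged 10 or more allele-specific hits in F1, the median paternal share was 50%, and 0.142% of the genes had a share above 90%.

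Snrpn had the most allele-specific reads, and nearly all of them came from the father's allele. Its paternal unique hits were 1826, 1897 and 1343 in the 3 F1 B6xCast libraries and 1932, 1685 and 1532 in the F1 CastxB6 libraries. The maternal hits in the same order were 9, 6 and 6, and 6, 6 and 2. The lowest paternal count was thus far above the highest maternal count whichever strain was the father. Over both crosses 10215 hits were paternal and 35 maternal, a paternal share of 99.7% (95% Wilson interval 99.5% to 99.8%). These intervals, here and below, cover counting error only. In the paper, a small part of the X chromosome unique hits of every F1 library mapped to the wrong parental genome. How many of the few maternal hits here were assigned to the wrong allele was not tested.

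Ndn, the gene of necdin, a neuronal protein that restrains cell division, followed the same pattern with a lower level. Its paternal hits were 398, 599 and 406 in F1 B6xCast and 525, 493 and 395 in F1 CastxB6. Its maternal hits were 6, 10 and 17 in F1 B6xCast and 4, 3 and 7 in F1 CastxB6. The paternal share was 98.4% over both crosses (97.8% to 98.8%). Mkrn3 had 52, 64 and 36 paternal hits in F1 B6xCast and 42, 36 and 28 in F1 CastxB6, and 1 maternal hit among 259, in F1 CastxB6 replicate 3. Its paternal share was 99.6% (97.9% to 99.9%). For Ndn and Mkrn3, as for Snrpn, no maternal count reached the lowest paternal count.

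Magel2 and Peg12 were too low for a firm share. Magel2, whose protein promotes ubiquitination on endosomes, had 22 paternal hits, between 2 and 5 per library, and no maternal hit, which allows a maternal share of up to 13.6% at 3 counts. Peg12 had 3 hits in all, 1 in each F1 B6xCast library and each from the paternal allele, so its share was not measurable at this depth. In F0 it had between 0 and 2 unique hits per library.

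The A230006K03Rik pair and A330076H08Rik, between Snrpn and Ndn, were also read mostly from the father, with higher maternal shares than Snrpn, Ndn or Mkrn3, although the interval of the A230006K03Rik lincRNA overlapped those of Ndn and Mkrn3. The protein-coding A230006K03Rik gene had 178 paternal and 10 maternal hits, a paternal share of 94.7% (90.5% to 97.1%). The lincRNA of the same name had 124 and 4, a share of 96.9% (92.2% to 98.8%). A330076H08Rik had 208, 248 and 188 paternal hits in F1 B6xCast and 136, 148 and 111 in F1 CastxB6. Its maternal hits were 12, 23 and 13 in F1 B6xCast and 23, 39 and 22 in F1 CastxB6. The A330076H08Rik share was 88.7% (86.8% to 90.4%), the lowest of the 8 genes other than Ube3a. It differed between the crosses, at 93.1% (90.9% to 94.7%) in F1 B6xCast and 82.5% (78.8% to 85.6%) in F1 CastxB6, and the 3 libraries of each cross did not overlap.

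Ube3a was read from both alleles. Its paternal hits were 227, 249 and 155 in F1 B6xCast and 203, 192 and 158 in F1 CastxB6. Its maternal hits were 152, 244 and 145 in F1 B6xCast and 290, 261 and 216 in F1 CastxB6. The paternal share was 53.8% (51% to 56.7%) with a C57BL/6J father and 41.9% (39.3% to 44.6%) with a Cast/EiJ father, so the C57BL/6J allele had more hits than the Cast/EiJ allele in each of the 6 F1 libraries. Over both crosses the share was 47.5% (45.6% to 49.5%). Reads from Ube3a and from its antisense partner could not be told apart without the strand. No row carried the symbol of the antisense gene, so it was not analysed here. By these values, which were in view when the genes were chosen, 7 of the 9 genes were read mostly from the father, on 22 hits for Magel2. The share of Peg12 was not measurable. The maternal share of Ube3a was 46.2% in F1 B6xCast, 58.1% in F1 CastxB6 and 52.5% (50.5% to 54.4%) over both crosses.

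**Figure D1:**
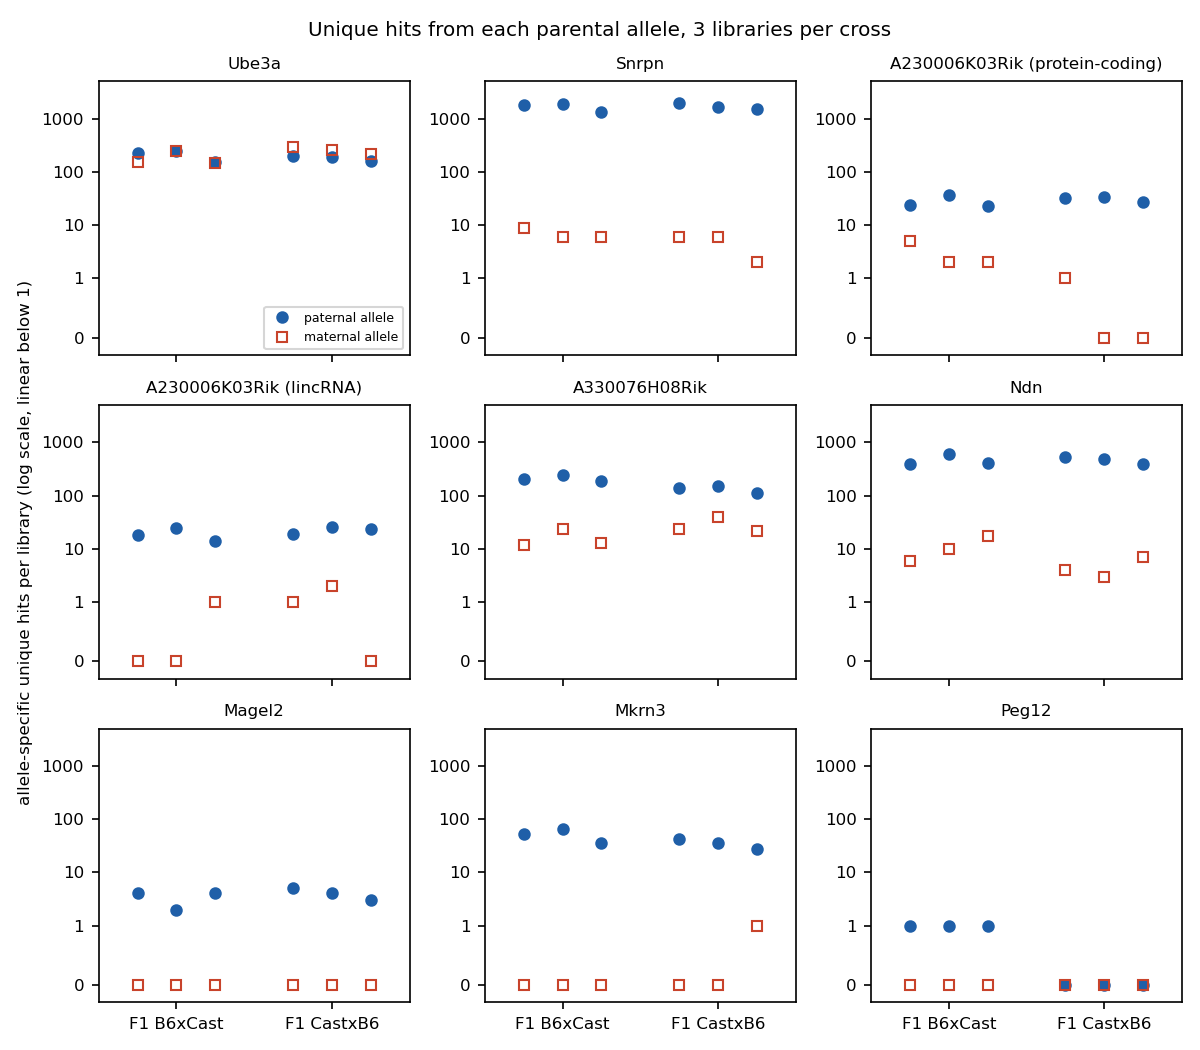
Allele-specific unique hits per F1 library (y axis, log scale that is linear below 1) for the 9 genes, with 3 libraries per cross along the x axis, paternal alleles as filled circles and maternal alleles as open squares. Paternal and maternal counts lie far apart for Snrpn, Ndn and Mkrn3, are closer for A330076H08Rik, with 12 to 39 maternal hits, and lie together for Ube3a.

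The genes on either side were read from both alleles. From 2 Mb before Ube3a to 2 Mb after Peg12, 13 other genes averaged 10 or more allele-specific hits in F1, and their paternal shares over both crosses ran from 45.7% to 57.2%. Atp10a, the nearest of them on the Ube3a side and the gene of a lipid flippase, had 204 paternal and 184 maternal hits, a share of 52.6% (47.6% to 57.5%). Gabrg3 and Gabra5, which encode GABA receptor subunits, gave 49.8% and 45.7%. Chrna7, the nicotinic receptor gene nearest to Peg12, had the highest share, 57.2% (51.3% to 62.9%), and Trpm1, the ion channel gene of bipolar cells, had 49.8% from 21610 hits. For 10 of the 13 the Wilson interval included 50%. Between Ube3a and Peg12 the tables hold 194 further rows, of which 6 are neither small nucleolar RNAs nor miRNAs. None of the 170 small nucleolar RNA rows of the window had a unique hit in any library. Capture by the polyadenylated tail and the count of unique hits alone limit what this shows about their expression.

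**Figure D2:**
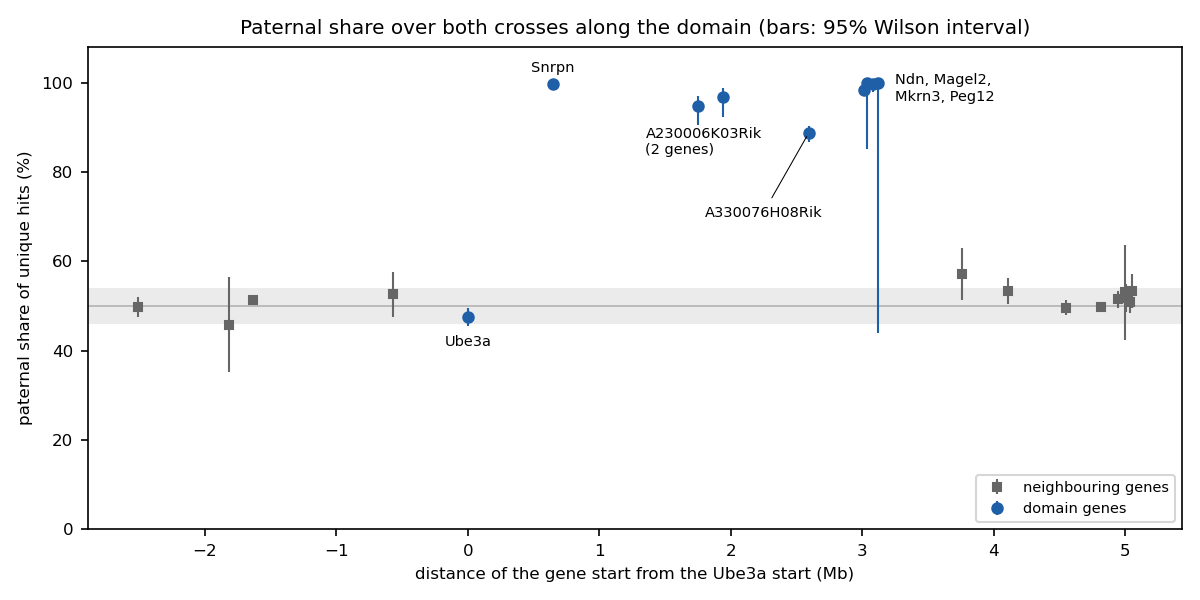
Paternal share of allele-specific unique hits over both crosses (y axis, percent) against the distance of each gene's lower coordinate from that of Ube3a (x axis, Mb), for the domain genes (circles) and 13 neighbours (squares), with 95% Wilson intervals and the central 90% of all genes as a grey band. The genes from Snrpn to Peg12 stand at 88.7% or more, and Ube3a and the neighbours stand between 45.7% and 57.2%.

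Snrpn and Ndn were also the highest genes by level. Per length of transcript, in units like FPKM, the F0 mean over 6 libraries was 93.7 for Snrpn (range 88.4 to 100.7), 51.2 for Ndn (39.5 to 63.1) and 13.1 for Ube3a (11.9 to 14.5). A330076H08Rik followed at 3.57 (1.98 to 5.11) and Mkrn3 at 1.83 (1.62 to 2.04). The A230006K03Rik lincRNA stood at 0.724 (0.480 to 0.972), the protein-coding A230006K03Rik gene at 0.347 (0.189 to 0.591), Magel2 at 0.155 (0.0778 to 0.219) and Peg12 at 0.0117. The first 3 levels did not overlap with each other or with those below. The ranges of A330076H08Rik and Mkrn3 overlapped, as did those of the A230006K03Rik pair and those of the protein-coding A230006K03Rik gene and Magel2.

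The values called count equivalents, which the authors scaled to a common total in each F0 library and in each allele of an F1 library, place a gene read equally from both alleles at its F0 level on each allele. The median ratio of the paternal allele to the F0 library of the same strain was 1.01 for C57BL/6J and 1.0 for Cast/EiJ over 12976 autosomal genes. For Snrpn these ratios were 1.86 and 2.09, for Ndn 2.13 and 1.92, for Mkrn3 2.09 and 1.83, and for A330076H08Rik 1.68 and 1.90. For Ube3a they were 1.09 and 0.829. The paternal alleles of Snrpn, Ndn and Mkrn3 thus stood at 1.83 to 2.13 times the F0 level of their strain, and that of Ube3a stood near the median gene. By this scaling, a gene read mostly from the paternal allele stands above its F0 level there without any rise in its total. The ratios therefore restate the paternal shares and are not read as a raised paternal copy. The lower genes varied more, with ratios of 1.47 and 2.08 for Magel2, 1.67 and 2.94 for the protein-coding A230006K03Rik gene and 1.89 and 3.03 for the lincRNA.

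**Figure D3:**
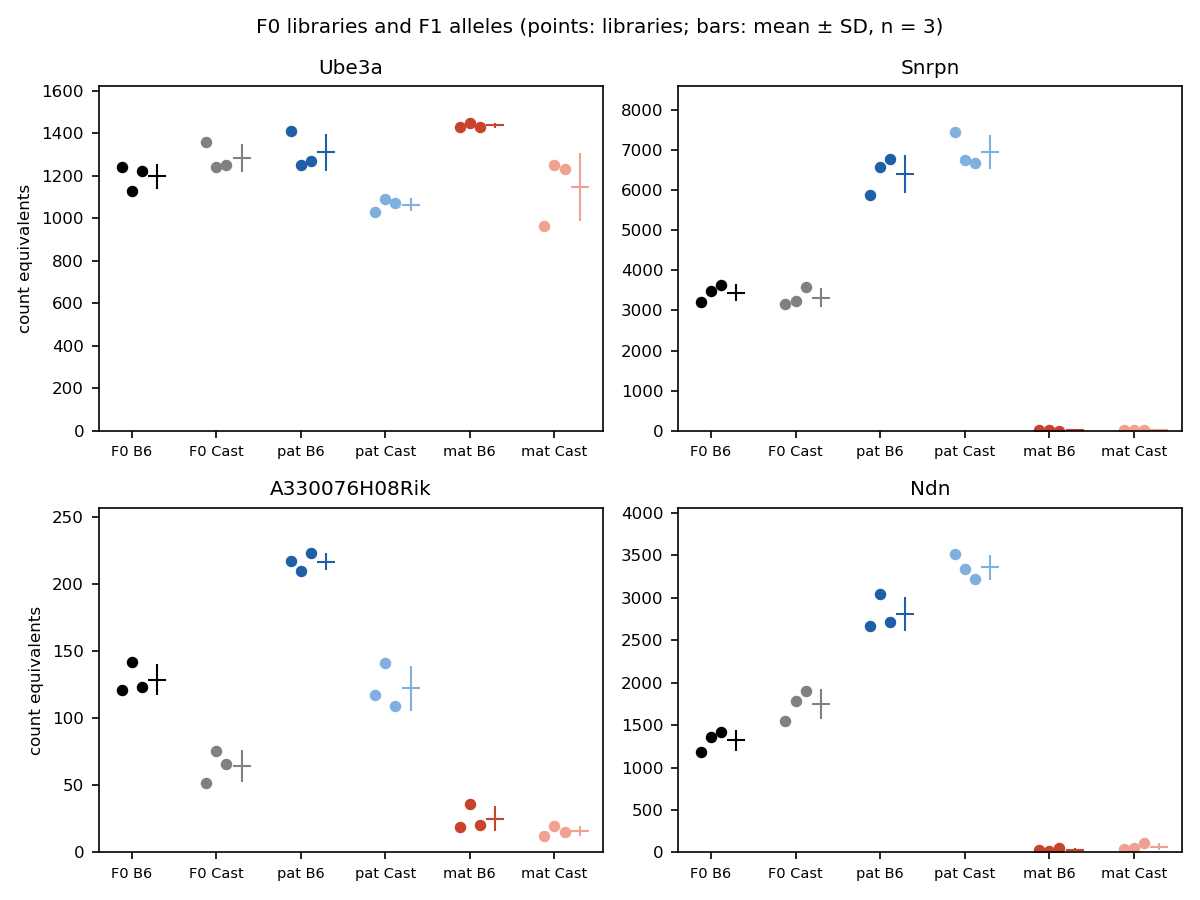
Count equivalents (y axis, linear from 0) of Ube3a, Snrpn, A330076H08Rik and Ndn in F0 libraries and on each F1 allele (x axis; pat, paternal; mat, maternal; B6, C57BL/6J; Cast, Cast/EiJ), with each library as a point and the mean ± SD of 3 libraries beside it. Paternal Snrpn averages 6403 and 6950 against 3447 and 3323 in F0, and the A330076H08Rik values of C57BL/6J exceed those of Cast/EiJ in F0 and on the paternal allele. Each F1 allele is scaled like an F0 library.

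The comparison of the F0 strains asks which genes differ in level between C57BL/6J and Cast/EiJ retinas, a contrast separate from that of the parental alleles, although the genes were chosen with their F0 levels also known. A330076H08Rik was lower and Ndn higher in Cast/EiJ. In F0 C57BL/6J the A330076H08Rik count equivalents were 121, 142 and 123, and in F0 Cast/EiJ they were 51.6, 75.9 and 65.7, with no overlap. The difference was -1.0 on the log2(value + 1) scale (SE 0.18, adjusted p = 0.0028, limma), a 2.0-fold lower level. Ndn was at 1180, 1360 and 1420 in F0 C57BL/6J and at 1550, 1790 and 1900 in F0 Cast/EiJ, again without overlap. Its log2 difference was 0.40 (SE 0.10, adjusted p = 0.014), and the adjusted p became 0.0542 without F0 Cast/EiJ replicate 2, 0.0544 without F0 Cast/EiJ replicate 3 and 0.116 without the filter on low values.

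Of the 8 domain genes tested between the F0 strains, these 2 were called at an adjusted p under 0.05, where 33.8% of all 14452 genes tested were called. Peg12 did not pass the filter of 10 count equivalents in 3 libraries. Snrpn was at 3220, 3490 and 3630 in F0 C57BL/6J and at 3160, 3230 and 3580 in F0 Cast/EiJ, with overlapping groups and a log2 difference of -0.05 (SE 0.08, adjusted p = 0.62). Ube3a differed by 0.10 (SE 0.07, adjusted p = 0.32) and Mkrn3 by 0.12 (SE 0.15, adjusted p = 0.57). For Magel2 and the A230006K03Rik pair the SE was 0.37 to 0.39, so that a difference of their size was not detectable at this depth. Bulk retina cannot tell fewer cells of a type from less RNA per cell. Among the marker lists, all of whose genes had hits, the summed FPKM of 3 retinal pigment epithelium markers was 8.64 to 10.6 in F0 C57BL/6J and 2.45 to 3.59 in F0 Cast/EiJ. That of 5 rod markers was 15590 to 15730 and 16620 to 17410, that of 3 ganglion cell markers 92.1 to 110 and 61.9 to 69.9, that of 3 cone markers 310 to 401 and 200.4 to 268, and that of 3 amacrine markers 106 to 137 and 146 to 167. The part of these shifts in the A330076H08Rik and Ndn differences was not tested.

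The paternal alleles of the F1 crosses allow the same strains to be compared within the active copy, in libraries that the F0 comparison did not use. The spread in this test also draws on the F0 libraries, so its SE and adjusted p are not separate from them. A330076H08Rik was again lower from Cast/EiJ. Its paternal C57BL/6J allele was at 217, 210 and 223 count equivalents in F1 B6xCast, and its paternal Cast/EiJ allele was at 117, 141 and 109 in F1 CastxB6, without overlap. The log2 difference was -0.83 (SE 0.22, adjusted p = 0.0076). The paternal Ube3a allele was at 1410, 1250 and 1270 for C57BL/6J and at 1030, 1090 and 1070 for Cast/EiJ, and differed by -0.30 (SE 0.09, adjusted p = 0.015). That call was lost without F1 CastxB6 replicate 1 (adjusted p = 0.0651) and under edgeR on unique hits (-0.26, adjusted p = 0.101). Paternal Ndn was at 2670, 3040 and 2710 for C57BL/6J and at 3520, 3340 and 3220 for Cast/EiJ, without overlap, with a log2 difference of 0.26 (SE 0.34, adjusted p = 0.62). Paternal Snrpn was at 5870, 6570 and 6770 and at 7440, 6740 and 6670, with overlapping groups and a difference of 0.12 (SE 0.37, adjusted p = 0.85).

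Of 7 domain genes tested on the paternal allele 2 were called, where 30.3% of all 13414 genes were called. The model holds the F0 libraries and the maternal alleles too and takes 1 spread per gene. A maternal allele near 0 has a wide spread on the log scale. When each value was weighted by its posterior SD, 5 of the 7 were called. Snrpn then differed by 0.13 (adjusted p = 0.0284), Ndn by 0.25 (adjusted p = 0.00101) and the A230006K03Rik lincRNA by 0.54 (adjusted p = 0.0417), each higher from Cast/EiJ. Under edgeR on unique hits the paternal Snrpn and Ndn differences had the opposite sign, -0.06 and -0.06, and were not called. EdgeR called Mkrn3 in place of Ube3a, at -0.59 (adjusted p = 0.0326), where limma gave -0.08 (adjusted p = 0.92). Magel2 and Peg12 had fewer than 10 allele-specific hits per library on average and were not tested.

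**Figure D4:**
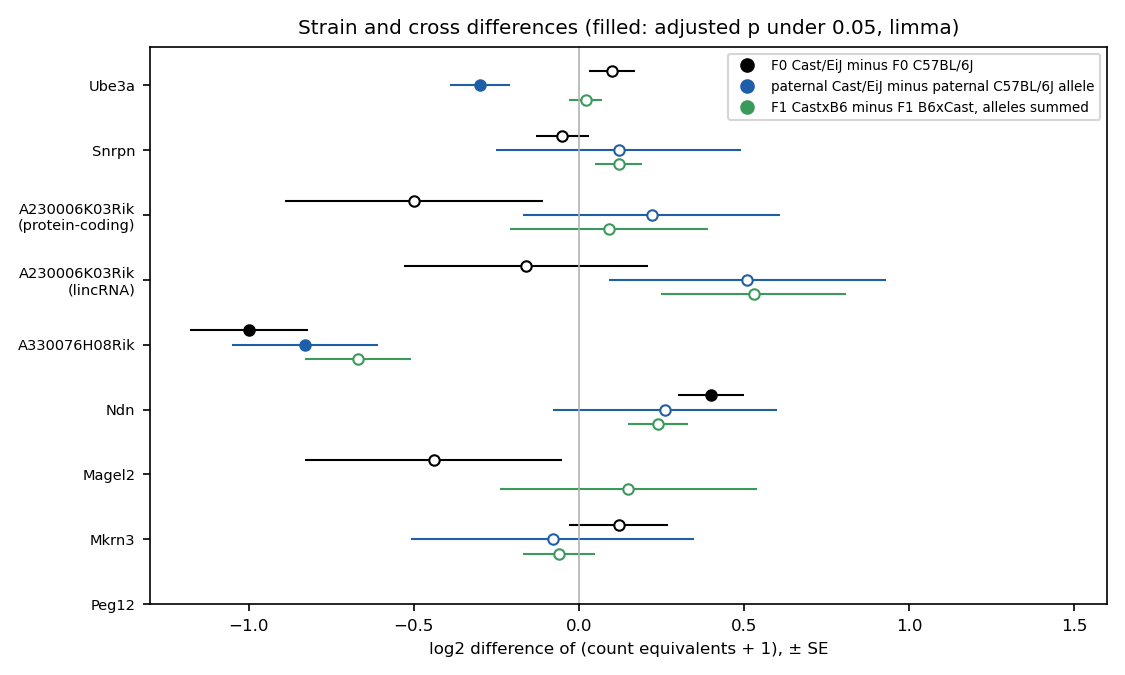
Log2 differences (x axis, count equivalents plus 1) with their SE for the domain genes, between the F0 strains, between the paternal alleles and between the F1 crosses with both alleles summed, filled where the adjusted p was under 0.05. A330076H08Rik lies below 0 in each of the 3 comparisons, at -1.0, -0.83 and -0.67, and Ndn above 0 at 0.40, 0.26 and 0.24, of which the last 2 had the other sign under edgeR on unique hits.

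With both alleles summed, the reciprocal crosses have the same genotype on the autosomes and differ in which strain was the father. A330076H08Rik was at 229 to 238 count equivalents in F1 B6xCast and at 130 to 177 in F1 CastxB6, where the values of both alleles were added, and the groups did not overlap. Its difference, F1 CastxB6 minus F1 B6xCast, was -0.67 (SE 0.16, unadjusted p = 0.0013, adjusted p = 0.69, limma). Ndn differed by 0.24 (SE 0.09, unadjusted p = 0.019, adjusted p = 1.0), and by -0.12 under edgeR on unique hits. No domain gene of 8 was called, and these 2 had an unadjusted p under 0.05. Over all 15397 genes 0.0779% were called, which is 12 genes, and 430 had an unadjusted p under 0.05. DESeq2 on rounded count equivalents called A330076H08Rik (log2 difference -0.65, adjusted p = 0.0267), and edgeR on unique hits called no domain gene. This comparison rests on the same F1 libraries as that of the paternal alleles. The remaining 6 genes differed by between -0.06 and 0.53 with unadjusted p of 0.088 or more.

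Whether the F0 strain difference and the difference between the reciprocal crosses were of unequal size was tested in 1 model of the 12 libraries. No domain gene of 8 was called by limma and none had an unadjusted p under 0.05, where 28.2% of all genes were called. For A330076H08Rik the F0 difference exceeded the cross difference by -0.34 (SE 0.22, adjusted p = 0.29), and for Ndn by 0.16 (SE 0.12, adjusted p = 0.37). DESeq2 called none of the domain genes here, and edgeR on unique hits called Mkrn3 (0.74, adjusted p = 0.0229) and Ndn (0.53, adjusted p = 0.0146).

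The Cast/EiJ allele was compared with the C57BL/6J allele as the mean of both crosses, which is also the mean of the paternal and the maternal strain differences. For Ube3a, the gene with reads from both alleles, the Cast/EiJ allele was lower by -0.32 on the log2 scale (SE 0.06, adjusted p = 0.00022), a 1.25-fold difference, and the call held under each alternative run. The maternal alleles alone differed by -0.33 (SE 0.09, adjusted p = 0.0076), from 1430, 1450 and 1430 count equivalents for C57BL/6J and 964, 1250 and 1230 for Cast/EiJ. Between the F0 strains the Ube3a difference had the other sign, 0.10, and was not called, and the difference between the F0 and the allelic values was not tested. A330076H08Rik was lower from Cast/EiJ by -0.72 (SE 0.14, adjusted p = 0.00049), also under each alternative run. Of 7 domain genes 4 were called here, where 47.0% of all genes were called, namely Ube3a, A330076H08Rik, Ndn and the protein-coding A230006K03Rik gene.

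On the maternal allele the calls among the paternally expressed genes rest on few reads, and wrongly assigned hits among them were not tested for. Of 7 domain genes 4 were called, against 29.8% of all genes. Maternal Ndn had 33 hits from Cast/EiJ and 14 from C57BL/6J, a ratio of 2.36 (exact interval of counting error 1.23 to 4.77, before any scaling for depth). Its log2 difference was 1.06 (SE 0.34, adjusted p = 0.026). Without F1 B6xCast replicate 3, F1 CastxB6 replicate 1 or F1 CastxB6 replicate 2 it was 0.601, 0.942 and 0.73 and was not called (adjusted p = 0.158, 0.105 and 0.161). Nor was it called with weights from the posterior SD (1.065, adjusted p = 0.551). Maternal hits of the protein-coding A230006K03Rik gene were 9 from Cast/EiJ and 1 from C57BL/6J, a ratio of 9.0 with an interval from 1.25 to 394. Its log2 difference was 1.67 (adjusted p = 0.0036), and between 0.598 and 3.855 across the alternatives. It was not called with a pseudocount of 5 (0.598, adjusted p = 0.0846) or with weights from the posterior SD (2.747, adjusted p = 0.289). For A330076H08Rik they were 48 from Cast/EiJ and 84 from C57BL/6J, a ratio of 0.571 (0.392 to 0.824). The strain difference of maternal A330076H08Rik was -0.61 (SE 0.22, adjusted p = 0.041), and -0.341 without F1 CastxB6 replicate 2. The call was lost under 8 of 21 alternatives. These left out F0 C57BL/6J replicate 3 (adjusted p = 0.0501), F1 B6xCast replicate 1 (0.176), F1 B6xCast replicate 3 (0.0998) or F1 CastxB6 replicate 2 (0.245), or used edgeR on unique hits (0.0785), weights from the posterior SD (0.159), a pseudocount of 5 (0.0523) or a mean of at least 1 hit (0.0555). The C57BL/6J copy of A330076H08Rik thus had more hits than the Cast/EiJ copy on the active paternal and on the little-read maternal chromosome.

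**Figure D5:**
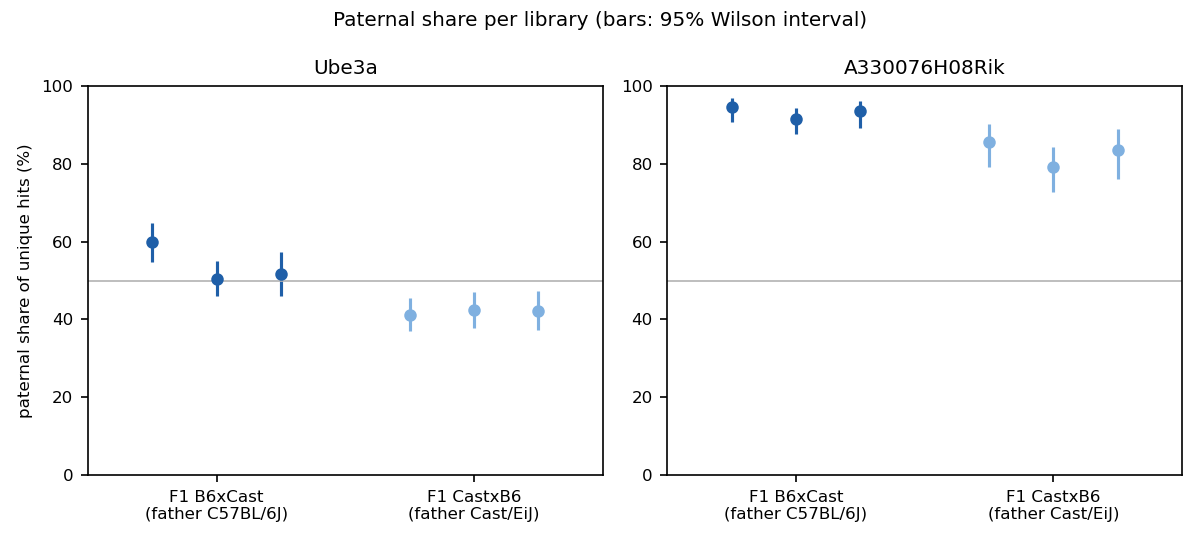
Paternal share of unique hits (y axis, percent) in each F1 library (x axis, by cross) for Ube3a and A330076H08Rik, with 95% Wilson intervals. The Ube3a shares run from 50.5% to 59.9% in F1 B6xCast and from 41.2% to 42.4% in F1 CastxB6, and those of A330076H08Rik from 91.5% to 94.5% and from 79.1% to 85.5%.

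By the similarity of the 6 libraries' log2 ratios of maternal to paternal hits, the genes most like Snrpn among 10742 others with at least 50 allele-specific hits were Sgce on chromosome 6 (root mean square difference 0.736), Rasgrf1 on chromosome 9 (1.09) and Usp29 on chromosome 7 (1.34). Each had over 99.5% paternal hits in both crosses, with 1320, 6587 and 963 paternal hits in all. The genes most like Ube3a were Lrrc46 on chromosome 11 (0.110), Mettl2 on chromosome 11 (0.118) and Unc5a on chromosome 13 (0.121), whose paternal share was 54.5% to 56.6% in F1 B6xCast and 41.2% to 43.2% in F1 CastxB6.

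Genes that work with the products of the domain were counted from fixed lists, beside 33.8% of all genes called between the F0 strains and 47.0% between the alleles. Of 8 genes for Sm proteins and their assembly, the partners of SmN in the spliceosome, 1 of 8 tested was called between the F0 strains, Snrpb (0.76, SE 0.10), and 2 of 6 between the alleles, Snrpb (0.32) and Snrpd3 (-0.69). Of 8 genes for MAGE proteins and partners of MAGEL2, 3 of 5 tested were called in F0. These were Trim27 (0.59), the ligase that MAGEL2 binds, Usp7 (0.22), a deubiquitinase of the same complex, and Vps29 (-0.40), a retromer subunit, and the same 3 were called between the alleles (0.28, 0.24 and -0.39). Of 7 partners of UBE3A, Neurl4 (0.24) and Ube2d2 (0.31) were called in F0, and Ube2l3 (0.29), a ubiquitin-conjugating enzyme that serves UBE3A, and Neurl4 (0.11) between the alleles. Of 12 genes for imprint upkeep, methylation and its removal, 10 were tested and 3 called in F0, Trim28 (0.47), Ctcf (0.21) and Smchd1 (0.39). Between the alleles 4 were called, Ctcf (0.16), Dnmt3a (-0.18), Tet3 (-0.20) and Tet2 (-0.34). The F0 medians of these 4 lists were 0.08, 0.20, 0.12 and 0.08, with 0.03 over all genes tested. Of the 22 genes listed as flanking the domain, 3 had no row under their symbols, Snhg14, Ipw and Snurf. In F0 5 of 18 tested were called, against 33.8% of all genes, among them Tubgcp5 (0.65), Klf13 (-0.38), Apba2 (-0.46) and Atp10a (-0.66), with a list median of -0.02. Between the alleles 11 of 18 flanking genes were called, against 47.0% of all genes, from -0.35 for Apba2 to 0.47 for Ndnl2. No gene of any of these lists was called between the reciprocal crosses.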

How the data were processed

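Polyadenylated RNA of 12 retina libraries was sequenced in paired 101 bp reads, F0 on 1 lane and F1 on 2. Per the study's methods and the submitters' processing notes, reads were trimmed with Trim Galore 0.2.6 and aligned with Bowtie 0.12.9 to transcriptomes of Ensembl release 67 on NCBI37, made for the strain of each F0 library and for both strains in F1, and MMSEQ estimated expression. The authors deposited a signal, the count equivalents, which they normalized across libraries, with 1 column per F0 library and 1 per F1 allele. The authors also deposited the natural log of expression, whose exponential is used as FPKM, with its posterior SD, itself given as a signal. Unique hits are the authors' deposited count of read pairs, without normalization. A further deposited table of the authors' own model probabilities, Bayes factors and estimates was not used, nor were its 36 columns per library.

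Tests used limma 3.58.1 (R 4.3.3) on log2(count equivalents + 1) across all autosomal genes, with Benjamini-Hochberg adjustment and calls at an adjusted p under 0.05. Totals were fitted where at least 3 libraries reached 10 count equivalents. Alleles were fitted together with the F0 libraries, for genes averaging 10 or more allele-specific hits in F1. Both alleles of a library formed a block in duplicateCorrelation (statmod 1.5.0, consensus correlation 0.135). Alternatives were edgeR 4.0.16 on unique hits, DESeq2 1.42.0, TMM factors, other pseudocounts and filters, weights from the posterior SD, a replicate block and each library left out. The fits were tested on simulated data. Shares carry 95% Wilson intervals. No 2 columns of unique hits were identical. Replicates are separate pools per the study's methods. Exons came from GENCODE on NCBI37, promoters from RefSeq (GRCm38.p6), aligned with Biopython 1.88. The same replicate number marks no shared litter or batch in the labels, and the samples were not treated as pairs.

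The genes, the lists and the tests were chosen with earlier results of these data known. The rule for naming takes every gene of the domain, every chromosome 7 row within 2 Mb that averages 10 or more such hits, the flanking list, called genes of the pathway lists, and for Snrpn and Ube3a the 3 genes with the most similar maternal to paternal ratios. Neighbours not named singly are given by their range, and 1 gene taken by this rule is not reported here.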

Additional observations from a re-analysis of the deposited data

Results flagged for a closer look

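For 4 genes of the domain the difference between the maternal and the paternal allele was not the same in the 2 crosses, by the test of the Cast/EiJ against the C57BL/6J allele over both crosses (limma). Ube3a had a log2 difference of -0.32 (adjusted p = 0.00022) and a higher C57BL/6J share in 6 of 6 F1 libraries, so its paternal allele led in F1 B6xCast and its maternal allele in F1 CastxB6. A330076H08Rik had -0.72 (adjusted p = 0.00049), with maternal shares of 6.94% in F1 B6xCast and 17.5% in F1 CastxB6. The protein-coding A230006K03Rik gene had 0.95 (adjusted p = 0.0059), on 10 maternal hits of 188, and the call was lost with a pseudocount of 5 (adjusted p = 0.0583) and with weights from the posterior SD (0.192). Ndn had 0.66 (adjusted p = 0.023), on 47 maternal hits of 2863. The Ndn call was lost without F1 B6xCast replicate 3 (adjusted p = 0.101), F1 CastxB6 replicate 1 (0.0905) or F1 CastxB6 replicate 2 (0.105), under edgeR on unique hits (0.0515) and with weights from the posterior SD (0.383), and its adjusted p was between 0.0022 and 0.38 across the alternatives.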

How the results depend on the processing

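Over the tests of single domain genes, 803 alternatives kept direction and call, 26 lost the call, 7 gained it and 18 had the other sign, none of these last called. Without the low-value filter 1 domain gene (Ndn was lost) and 3161 of all genes were called between the F0 strains, and DESeq2 called 1 and 28 between the crosses. EdgeR on unique hits called 6 of all genes between the crosses and 2 domain genes for F0 against crosses. With weights from the posterior SD, 2 domain genes were called between the alleles, 5 between the paternal and 1 between the maternal alleles, and with a pseudocount of 5, 2 between the maternal alleles. The other signs under edgeR were, between the crosses, Snrpn -0.094, the protein-coding A230006K03Rik gene -0.077 and Ndn -0.118, between the paternal alleles Snrpn -0.057 and Ndn -0.064, and for F0 against crosses Snrpn 0.053. The A230006K03Rik lincRNA had 0.133 between the alleles with a pseudocount of 5. The causes were not tested. The Peg12 paternal share was 99.88% by count equivalents, on 3 hits. Leaving out 1 library gave 1 to 2 domain genes between the F0 strains, 1 to 2 between the paternal and 2 to 4 between the maternal alleles, and 9 to 21 of all genes between the crosses. It moved the A230006K03Rik lincRNA from -0.406 to 0.06 in F0 and from -0.234 to 0.116 between the alleles, Snrpn from -0.119 to 0.874 between the maternal alleles and, between the crosses, Ube3a from -0.000123 to 0.037, the protein-coding A230006K03Rik gene from -0.022 to 0.223 and Magel2 from -0.16 to 0.377.

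With replicate numbers as a block, 2 domain genes were called in F0, 4 between the alleles, 2 between the paternal and 4 between the maternal alleles, and 0 between the crosses, as without it, and 6376 of all genes in F0. Deviations of same-numbered samples correlated at 0.256, 0.0379 and 0.101 in F0 and at -0.087, -0.112 and -0.0558 in F1, so the numbers were not taken to pair the samples. Hits below 10 per library limit Magel2, Peg12 and the maternal alleles of Snrpn, Mkrn3, the A230006K03Rik pair and, in most libraries, Ndn.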

Other observations

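Gm9801, a pseudogene at chr7:69259527-69263873 between A330076H08Rik and Ndn, fell below the limit for neighbours and was picked out after its values were seen. It had 20 paternal unique hits over the 6 F1 libraries, between 0 and 8 per library, and no maternal hit, which allows a maternal share of up to 15.0% at 3 counts. The 6 F0 libraries held 1 unique hit of it in all.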
